A study of Mus musculus with 6 samples.

Results

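Ion channels are membrane proteins that let potassium, calcium, sodium or chloride ions pass when voltage, a ligand, calcium or stretch opens them. The genes described here were the rows of a table of gene counts from mouse hematopoietic stem cells whose symbols name potassium channels (Kcn), voltage-gated calcium channels (Cacn), voltage-gated sodium channels (Scn), chloride channels and exchangers of the CLC family (Clcn), ATP-gated P2X receptors (P2rx) and the TRPC, TRPM and TRPV cation channels. Trpm6 was left out. Of 176 such rows in a table of 24091, 61 were selected on their measured level, by having at least 0.5 CPM (the count scaled to a fixed column total) in at least 3 of the 6 libraries. All 61 were also among the 13413 genes tested for a difference between ages. The symbol rule also brought in genes that encode no channel subunit, among them Kcnq1ot1, a long noncoding RNA, and Trpc4ap, a protein named for its binding to a TRPC channel.

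The 6 libraries came from sorted wild-type stem cells, negative for lineage markers, positive for Sca-1, c-Kit and CD150 and negative for CD48. The aged group (aged 1, aged 2 and aged 3) was from mice 20 months old and the young group (young 4, young 5 and young 6) from mice 2 months old. The labels give 4 pooled mice for the aged and 30 for the young samples without saying whether these numbers are per library, and p-values therefore reflect only how much these pools varied, part of which may be technical. In blood cells, potassium efflux helps set the membrane potential and so sustains the calcium entry that drives calcium signalling. CLC exchangers of endosomes and lysosomes support acidification of those compartments. P2X receptors let cells sense ATP outside the cell.

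Library totals lay between 16452829 and 21918658. A count of 0 allows up to 3 counts, which came to 0.132 to 0.239 CPM in TMM-scaled units, the scale of all CPM values below. All 9 stem cell and sort markers were measured, and 4 were called higher and 2 lower in aged cells. Those higher were Ly6a (3.04-fold), Procr (2.82-fold), Fgd5 (2.11-fold) and Mecom (1.83-fold), and those lower Flt3 (6.45 to 7.799 against 12.7 to 21.5 CPM) and Cd48. Their sum was 1723 to 2069 CPM in aged and 878.5 to 1426 CPM in young libraries. Kit stood at 320.2 to 1033 CPM over the libraries, and Cd48, which the sort excludes, was at 0.511 to 2.54 CPM in aged and 8.59 to 14.5 CPM in young libraries, with an adjusted p of 0.0345 by edgeR. The T cell genes Cd3e, Cd3d, Cd3g and Cd8a and the neuronal genes Snap25 and Syt1 were under 0.5 CPM in every library. Summed over 11 macrophage and monocyte markers, aged libraries stood at 38.4 to 42.0 CPM and young ones at 45.9 to 78.2 CPM, the highest in young 4. The sum of 7 endothelial markers was 382.7 to 462.0 CPM in aged and 253.1 to 348.7 CPM in young libraries. In that list Kdr, Pecam1 and Esam lay higher in aged libraries without overlap. Tek, Emcn, Plvap and Cdh5 overlapped between the ages, and Cdh5 did not pass 1.27 CPM. None of the 6 tested genes of the list was called. Platelet and megakaryocyte markers summed to 1266 to 2201 CPM in aged and 1088 to 2051 CPM in young libraries. Mast cell and basophil markers summed to 158.9 to 234.5 CPM in aged and 143.7 to 300.5 CPM in young libraries. Stromal markers summed to 7.34 to 10.9 CPM in aged and 5.96 to 53.3 CPM in young libraries. Young 6 was the highest in both lists, with Prss34 at 85.2 CPM and Col1a1 at 43.1 CPM there. Sums of B cell, neutrophil and erythroid markers overlapped between the ages. The part of these markers in the differences below was not tested. Fewer cells of a type and less RNA per cell cannot be told apart in such pools.

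The sequence just upstream of the start is shown for the genes called higher in aged cells that have an entry in the RefSeq promoter table (build GRCm38.p6, the same assembly as mm10). It holds 47 of the 61 genes and 4 of the 7 called ones. Each run is the 250 bases before the start nearest to that of the deposited gene, 5′ to 3′ on the gene's strand: Trpc1 at chr9:95750349-95750598 (minus), Kcnip3 at chr2:127522095-127522344 (minus, 1 of 3 starts listed), P2rx6 at chr16:17561635-17561884 (plus) and Cacna1b at chr2:24763153-24763402 (minus). Capitals mark matches, on either strand, to any of 8 short motifs. The promoter elements searched were GGGCGG (the GC box), then CCAAT (the CCAAT box) and also TATAAA (the TATA box). Those named for factor families were TGTGGT (named for RUNX), then AGATAA (named for GATA) and also CCGGAA (named for ETS). The last were CAGCTG (a form of the E-box) and also TGACGT (the core of the CRE).
Trpc1: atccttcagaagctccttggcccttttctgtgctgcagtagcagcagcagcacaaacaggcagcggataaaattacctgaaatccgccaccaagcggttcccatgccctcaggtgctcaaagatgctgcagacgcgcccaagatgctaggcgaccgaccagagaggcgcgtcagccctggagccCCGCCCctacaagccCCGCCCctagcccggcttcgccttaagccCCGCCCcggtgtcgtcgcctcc
Kcnip3: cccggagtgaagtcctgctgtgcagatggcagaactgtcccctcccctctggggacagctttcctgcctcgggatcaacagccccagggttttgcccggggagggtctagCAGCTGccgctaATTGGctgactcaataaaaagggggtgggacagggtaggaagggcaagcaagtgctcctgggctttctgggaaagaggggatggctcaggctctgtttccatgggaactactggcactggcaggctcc
P2rx6: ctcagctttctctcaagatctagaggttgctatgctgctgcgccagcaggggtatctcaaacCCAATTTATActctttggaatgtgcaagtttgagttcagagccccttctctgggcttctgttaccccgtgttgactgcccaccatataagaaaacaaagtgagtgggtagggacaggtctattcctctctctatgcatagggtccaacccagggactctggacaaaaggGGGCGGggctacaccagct
Cacna1b: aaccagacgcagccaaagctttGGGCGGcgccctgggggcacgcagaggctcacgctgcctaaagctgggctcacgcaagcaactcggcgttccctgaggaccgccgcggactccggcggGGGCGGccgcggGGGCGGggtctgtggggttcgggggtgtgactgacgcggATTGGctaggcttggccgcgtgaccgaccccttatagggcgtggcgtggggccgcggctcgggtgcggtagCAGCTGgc

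The 4 sequences differed in composition. GC content was 62.8% for Trpc1, 60.0% for Kcnip3, 50.8% for P2rx6 and 72.0% for Cacna1b, against a median of 52.4% over 32851 promoters. Trpc1 and Cacna1b held 3 GC boxes each, P2rx6 held 1 and Kcnip3 none, and 32.7% of all promoters of this length hold at least 1. Kcnip3, P2rx6 and Cacna1b each held a CCAAT box, a motif found in 33.8% of promoters, and Kcnip3 and Cacna1b an E-box, found in 13%. In P2rx6 the TATA match, a motif of 12.4% of promoters, overlaps the CCAAT match. No RUNX, GATA, CRE or ETS match was found in the 4 windows, where 14%, 9.99%, 6.47% and 12% of promoters hold one. A match is a description of the letters and no measure of binding.

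Levels are compared between genes only per length, as RPKM (TMM-scaled CPM per kb of the deposited gene length). Kcnn4 stood far above every other channel gene, at 92.6 ± 5.58 RPKM in aged and 72.7 ± 12.2 RPKM in young cells (SD, n = 3 each). It encodes the calcium-activated potassium channel of red and white blood cells. The next were Trpc6, P2rx4, P2rx1, Clcn4 and Trpm7. Trpc6, a cation channel opened by diacylglycerol, was at 35.6 ± 3.24 and 25.8 ± 2.48 RPKM. P2rx4, an ATP receptor also found in lysosomes, was at 34.7 ± 2.34 and 21.7 ± 2.63 RPKM, and P2rx1, the ATP receptor known from platelets, at 24.1 ± 12.3 and 20.1 ± 3.50 RPKM. Clcn4, an endosomal chloride-proton exchanger, was at 18.9 ± 1.16 and 22.5 ± 5.23 RPKM. Trpm7, a channel fused to a kinase and known for magnesium entry, was at 16.2 ± 1.51 and 17.5 ± 2.55 RPKM. In aged cells Trpc6 and P2rx4 lay within each other's SD, and in young cells the SDs of Clcn4, P2rx1 and Trpm7 overlapped, so their order is not settled.

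**Figure D1:**
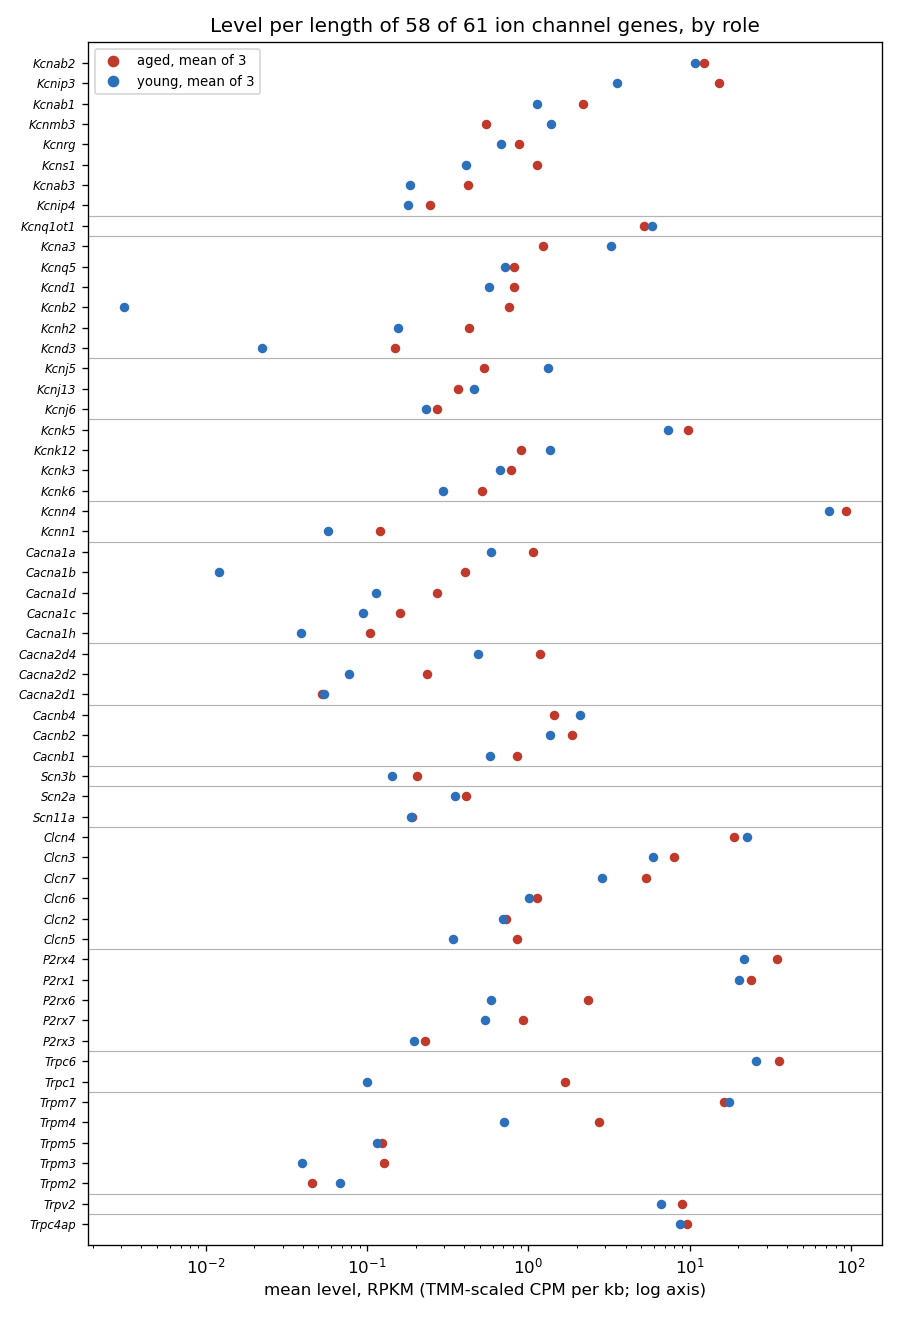
Mean level of 58 of the 61 genes in RPKM (log axis), with 1 point for the mean of the 3 aged libraries and 1 for the mean of the 3 young libraries; grey lines part the roles. Kcnn4 lies highest, at 92.6 and 72.7 RPKM, and the young point of Kcnb2 lies lowest, its 3 libraries holding 1 count together.

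Most voltage-gated subunits were near the floor. Of 35 symbols of voltage-gated potassium pores only 8 passed the level rule, of 15 inward rectifiers 3, of 10 calcium channel pores 5, of 10 sodium channel pores 2 and of 8 calcium channel gamma subunits none. The CLC family (6 of 9), P2X receptors (5 of 7) and TRPM channels without Trpm6 (5 of 7) passed more often. Just inside the level rule lay Kcnn1 and Kcnmb3, whose third-highest unscaled value was 0.519 and 0.537 CPM. Just outside lay Kcnt2 and Clcn1, at 0.464 and 0.456 CPM.

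Detection depended on the library. Aged 2 had at least 1 count in 169 of the 176 symbols, against 124 and 126 in aged 1 and aged 3 and 104 to 116 in the young libraries. The same held over the whole table. Of its 24091 rows, aged 2 had a count in 20918 and the other libraries in 16084 to 17057. In the 115 symbols that did not pass, aged 2 held 799 counts and the other libraries 146 to 258. Without aged 2, 51 symbols would have passed in place of 61, against 54 to 60 without any other library. Young 4 held the lowest value of the 6 libraries for 31 of the 61 genes, while it was the lowest for 35.3% of all genes tested.

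**Figure D2:**
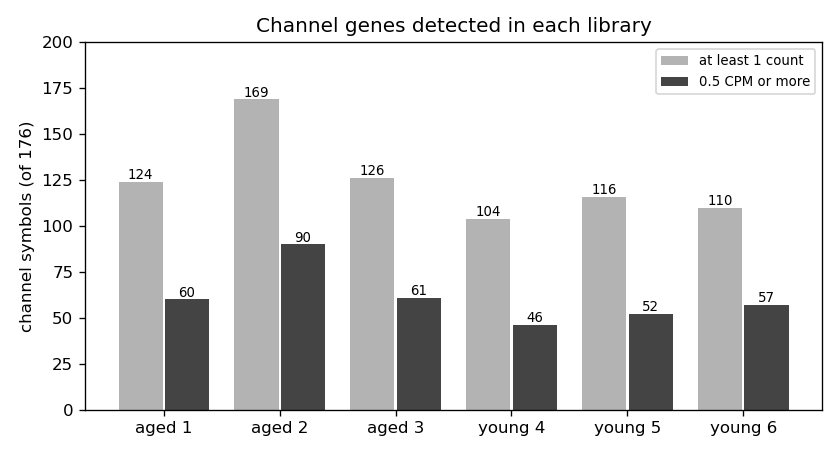
Number of the 176 channel symbols with at least 1 count (light bars) and with at least 0.5 CPM of the column total (dark bars) in each library. Aged 2 stands above the others with 169 and 90, and young 4 is lowest with 104 and 46.

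The comparison of aged with young stem cells asked which channel genes differ with age. Kcnip3, Trpc1, Trpm4, P2rx6, Cacna1b and Kcnb2 were among the 7 channel genes called higher in aged cells, and no channel gene was called lower. The 7 of 61 (11.5%) had an adjusted p under 0.05 in edgeR's quasi-likelihood test, adjusted by Benjamini-Hochberg over all genes tested, of which 5.76% were called, 4.26% higher and 1.5% lower. Of the 7, 3 genes, Cacna1b and Kcnb2 among them, had reached 0.5 CPM in aged libraries only, so the level rule could admit them only if they were higher there. Of the 56 genes at 0.5 CPM in at least 1 library of each age, 4 (7.14%) were called. At an unadjusted p under 0.05, 23 of the 61 were higher and 2 lower, against 13.9% and 11.1% of all genes. Aged values lay above young ones without overlap in 27 genes and below in 1, against 19.0% and 17.6% of all genes. Among the 56 genes, 18 were higher and 2 lower at that p, and 22 lay above and 1 below. The other 5 of the 61 were all higher, a direction the rule had fixed. Some of the 56, Trpc1 among them, reached 0.5 CPM in all aged but not all young libraries. The rule could thus still favour higher aged values among the 56. Of the 40 genes at 0.5 CPM in all 6 libraries, 3 (7.5%) were called, all higher. At that p, 14 of the 40 were higher and 1 lower, and 17 lay above and 1 below. The median log2 fold change was 0.44 over the 61 and 0.42 over the 56, beside 0.04 over all genes tested.

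Kcnip3 had the smallest p. It encodes calsenilin, also called DREAM, a calcium-binding protein that attaches to A-type potassium channels and is also known as a repressor of transcription. It lies on mm10 chromosome 2, 127456498 to 127522094, minus strand, and shares no exonic base with another gene in GENCODE M21. It stood at 47.1, 47.8 and 66.2 CPM in aged 1 to aged 3 and at 10.8, 13.9 and 13.1 CPM in young 4 to young 6. Every aged library was above every young one by a wide margin. The fitted rise was 4.24-fold (2.08 ± 0.21 SE on the log2 scale, edgeR adjusted p = 0.00648). The call held with each library left out, with adjusted p-values from 0.0096 to 0.0358, and in every alternative fit run for this gene.

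The A-type pores that Kcnip proteins attach to were far lower per length than Kcnip3 itself. Kcnip3 was at 15.1 ± 3.04 RPKM in aged and 3.55 ± 0.459 RPKM in young cells, Kcnd1 at 0.818 ± 0.419 and 0.569 ± 0.128 RPKM and Kcnd3 at 0.149 ± 0.0455 and 0.0224 ± 0.0219 RPKM. Kcnd3 held 24, 36 and 24 counts in the aged and 1, 2 and 10 in the young libraries, and did not pass by edgeR (adjusted p = 0.0603). It too had reached 0.5 CPM in aged libraries only. Kcnip4 was low in both groups, at 0.737 ± 0.263 and 0.542 ± 0.139 CPM.

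Trpc1 encodes a cation channel subunit often linked to calcium entry after the stores have emptied (chromosome 9, 95705067 to 95750358, minus strand). It stood at 6.76, 8.67 and 7.47 CPM in the aged libraries and at 0.159, 0.648 and 0.570 CPM in the young ones, which held 2, 13 and 13 counts. The groups did not overlap, and young 4 was under the limit that a count of 0 allows there. Trpc1 rose 15.6-fold (log2 3.96 ± 0.43 SE, adjusted p = 0.00794 by edgeR). With a library left out the fold ran from 12.3 without young 4 to 18.9 without young 5, and the call held each time. Trpc6, the other TRPC gene that passed, was at 172.5, 168.6 and 198.7 CPM in aged and 121.0, 126.0 and 144.7 CPM in young libraries (adjusted p = 0.137). Per length, Trpc6 was the higher of the pair in both ages, at 35.6 against 1.67 RPKM in aged cells.

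Trpm4 encodes a channel that calcium opens and that passes sodium and potassium (chromosome 7, 45303155 to 45333780, minus strand). Its values were 15.2, 8.62 and 11.4 CPM in aged and 2.70, 3.79 and 2.59 CPM in young libraries, without overlap. It rose 3.87-fold (log2 1.95 ± 0.31 SE, adjusted p = 0.0223 by edgeR). Its adjusted p rose above 0.05 when aged 1 (0.051), aged 3 (0.0812), young 5 (0.0728) or young 6 (0.0828) was left out. Trpm7 did not separate the ages, at 125.4 to 147.1 CPM in aged and 128.2 to 167.2 CPM in young libraries. Trpm3, a channel known from sensory neurons and opened by steroids, was at 1.86 ± 0.968 and 0.578 ± 0.0920 CPM (adjusted p = 0.0885). Trpm2 and Trpm5 were near the floor in both ages.

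P2rx6 encodes a P2X subunit known mainly from receptors it forms with other P2X subunits (chromosome 16, 17561885 to 17577800, plus strand). Its interval overlaps that of Slc7a4, on the other strand, and reads carry no strand, but no exonic base is shared in GENCODE M21. P2rx6 stood at 8.82, 7.79 and 11.3 CPM in aged and 1.43, 2.64 and 2.98 CPM in young libraries. It rose 3.90-fold (log2 1.96 ± 0.33 SE, adjusted p = 0.0268 by edgeR). Its call was lost without any library but young 4, with adjusted p-values of 0.0604 to 0.0994. P2rx4 was at 86.9, 99.4 and 94.0 CPM in aged and 50.5, 60.2 and 64.3 CPM in young libraries, also without overlap, and narrowly missed the threshold (log2 0.68 ± 0.16 SE, adjusted p = 0.055). Without young 4 its adjusted p was 0.047. P2rx1 was at 98.0 CPM in aged 1 and at 40.1 to 56.9 CPM in the other 5 libraries, so aged 1 set the aged mean. The platelet marker sum was likewise highest in aged 1, at 2201 CPM, and its part in the P2rx1 level was not tested. P2rx7, a receptor of macrophages, was at 5.06 ± 2.88 and 2.96 ± 0.693 CPM (adjusted p = 0.312).

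Cacna1b, the pore of N-type calcium channels of nerve endings, was almost absent from young cells (chromosome 2, 24603889 to 24763152, minus strand). It had 40, 136 and 65 counts in the aged and 1, 2 and 4 in the young libraries, or 1.92, 7.02 and 3.02 CPM against 0.0795, 0.0997 and 0.175 CPM. Aged 2 was the highest, and the young values were near what 3 counts give. Cacna1b had reached 0.5 CPM in aged libraries only, so the level rule had fixed its direction. Pooled counts gave a ratio of 30.9 (95% exact interval 14.8 to 77.7, counting error only), and the fitted adjusted p was 0.0167 by edgeR. The fitted fold was 30.4, and 18.6 without aged 2. The call was lost without aged 3 (0.0577), young 5 (0.0779) or young 6 (0.0693).

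None of the other 4 calcium channel pores was called. Cacna1a, the pore of P/Q-type channels, was at 11.2, 9.80 and 10.7 CPM in aged and 6.92, 4.98 and 5.66 CPM in young libraries (adjusted p = 0.0701 by edgeR). Without young 4 its adjusted p was 0.0415. Cacna1d and Cacna1c, pores of L-type channels, were at 3.19 ± 0.814 and 2.35 ± 0.474 CPM in aged and 1.34 ± 0.258 and 1.40 ± 0.165 CPM in young cells, with adjusted p-values of 0.0727 and 0.186 (SD, n = 3 libraries per mean, edgeR). The values of these 3 genes did not overlap between ages. Cacna1d shares 6.5% of its exonic bases with Chdh on the other strand. Cacna1h, a T-type pore, held 7, 36 and 15 counts in aged and 0, 13 and 10 in young libraries, which overlap, and its fold changed sign under at least 1 alternative.

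Among the subunits that attach to calcium channel pores, none of 6 was called. Cacna2d4 was at 9.59, 7.53 and 7.71 CPM in aged and 1.75, 4.29 and 4.21 CPM in young libraries (log2 1.26 ± 0.36 SE, adjusted p = 0.0897 by edgeR). Cacnb2, a cytosolic beta subunit, was at 13.9 to 14.4 CPM in aged and 8.92 to 11.9 CPM in young libraries (adjusted p = 0.217). Cacnb1 was at 2.06 to 4.94 and 1.51 to 3.04 CPM, and among the alpha2delta subunits Cacna2d2 was at 0.929 to 1.58 and 0.239 to 0.745 CPM (adjusted p = 0.129) and Cacna2d1 at 0.240 to 1.03 and 0.398 to 0.964 CPM. Cacnb4 was at 36.1 CPM in young 4 and at 7.10 to 17.8 CPM in the other 5 libraries, so young 4 set the young mean. It shares 13.4% of its exonic bases with a gene on the opposite strand.

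Kcnb2, the pore of a delayed rectifier potassium channel, had 26, 52 and 176 counts in aged 1 to aged 3 and 0, 1 and 0 in the young libraries (chromosome 1, 15312452 to 15714214, plus strand). In CPM the aged values were 1.25, 2.68 and 8.17, and aged 3 stood far above the other aged libraries. Pooled counts gave a ratio of 228 with a 95% exact interval of 40.6 to 9042, which covers counting error only. Kcnb2 too had reached 0.5 CPM in aged libraries only, so the level rule had fixed its direction. The adjusted p was 0.0235 by edgeR. With a library left out, the fitted log2 difference ran from 6.33 (aged 3) to 9.29 (young 5), and the adjusted p rose to 0.0587 (aged 2), 0.0568 (aged 3), 0.0923 (young 5) or 0.0834 (young 6).

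**Figure D3:**
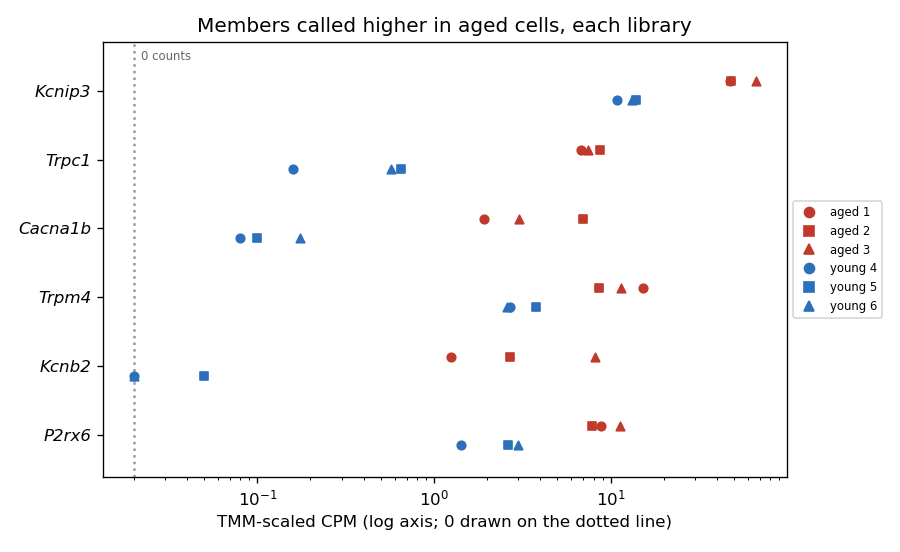
TMM-scaled CPM (log axis) of 6 of the 7 genes called higher in aged cells, with 1 point per library; aged libraries are red, young ones blue, marker shapes tell libraries apart, and a value of 0 is drawn on the dotted line. In every gene the 3 aged points lie to the right of the 3 young points, and the gap is widest in Kcnb2, whose young libraries held 0, 1 and 0 counts.

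Kcna3, the voltage-gated potassium channel of T lymphocytes, leaned to lower values in aged cells. It stood at 4.17, 2.37 and 0.743 CPM in aged and 4.45, 7.37 and 7.36 CPM in young libraries. Of the 61 genes that passed the level rule, it was the only one with every aged value below every young one. It did not pass the test (log2 -1.40 ± 0.57 SE, adjusted p = 0.184 by edgeR). The T cell markers Cd3e, Cd3d, Cd3g and Cd8a were at most 0.361 CPM, and the 7 T cell markers in the table summed to 23.7 to 29.0 CPM in aged and 25.4 to 28.1 CPM in young libraries. Among them Cd4 was called lower in aged cells (0.186 to 0.413 against 1.99 to 3.69 CPM, adjusted p = 0.0145). Cd247 was called higher (7.53 to 9.94 against 2.78 to 4.24 CPM, adjusted p = 0.0345), and Lck overlapped, at 15.8 to 18.9 and 18.2 to 23.2 CPM. Their part in the Kcna3 values was not tested. Kcnmb3, an accessory subunit, was the other gene lower at an unadjusted p under 0.05, with 6 to 10 counts in aged and 6 to 35 in young libraries (adjusted p = 0.171). Kcnj5, an inward rectifier opened by G proteins, overlapped between the ages (adjusted p = 0.496). It was at 6.52, 0.568 and 0.0464 CPM in aged and 2.15, 6.03 and 9.64 CPM in young libraries.

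Kcnn4, Kcnab2 and Kcnk5, which with Kcnip3 had the highest levels per length among potassium channel genes, were not called. Kcnn4 was at 243.8, 217.4 and 239.1 CPM in aged and 149.8, 210.1 and 189.6 CPM in young libraries (adjusted p = 0.266 by edgeR). The groups did not overlap, but the log2 difference of 0.35 became -0.07 with the GC and length trend removed, so no direction is given. Kcnab2, a cytosolic beta subunit of voltage-gated channels, was at 79.1, 26.7 and 32.5 CPM in aged and 21.7, 42.5 and 56.6 CPM in young libraries (adjusted p = 0.821). Kcnk5, a background potassium channel that senses pH, was at 55.5, 17.7 and 24.9 CPM and 13.8, 31.8 and 28.2 CPM (adjusted p = 0.606). In both genes aged 1 was the highest and young 4 the lowest of the 6 libraries. Kcnab1 was at 7.55 ± 1.51 and 3.93 ± 0.720 CPM (adjusted p = 0.0858) and Kcns1, a silent subunit that modifies other channels, at 3.07 ± 0.659 and 1.11 ± 0.374 CPM (adjusted p = 0.0625). Both were without overlap between the ages.

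The remaining potassium genes were low. Among background leak channels Kcnk3 was at 2.43 to 3.39 CPM in aged and 2.24 to 2.89 CPM in young libraries, Kcnk12 at 1.19 to 2.44 and 0.636 to 3.94 CPM and Kcnk6 at 1.82 to 2.48 and 1.18 to 1.27 CPM (adjusted p = 0.155 for Kcnk6 by edgeR). Of these, only Kcnk6 was without overlap between the ages. The inward rectifiers Kcnj13 and Kcnj6 overlapped, at 0.911 to 1.25 and 0.874 to 2.09 CPM and at 1.73 to 2.12 and 1.40 to 2.15 CPM. Kcnq5, a relative of the M-current channels, was at 5.56 to 7.47 and 5.17 to 5.78 CPM, and Kcnh2, the pore of a cardiac repolarizing channel, at 1.24 to 2.88 and 0.0795 to 1.05 CPM (adjusted p = 0.252). Kcnab3 was at 0.877 to 1.44 and 0.349 to 0.833 CPM (adjusted p = 0.183) and Kcnrg at 1.21 to 1.86 and 0.897 to 1.51 CPM. P2rx3, a receptor of sensory neurons, overlapped too, at 0.696 to 1.34 and 0.636 to 0.921 CPM.

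Kcnq1ot1, the noncoding RNA that silences imprinted neighbours of Kcnq1, was the channel-named row with the most counts in each library. It was at 332.5 to 497.8 CPM in aged and 383.3 to 655.8 CPM in young libraries, which overlap (adjusted p = 0.714). Over its 83.4 kb this came to 5.181 ± 1.052 and 5.82 ± 1.78 RPKM. Kcnq1 itself did not pass the level rule.

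Chloride channel and exchanger genes were not called. Clcn3, an endosomal exchanger, was at 96.3, 92.3 and 107.1 CPM in aged and 76.6, 74.2 and 68.7 CPM in young libraries, without overlap (adjusted p = 0.131 by edgeR). Clcn5, an exchanger of early endosomes, was at 4.27, 2.73 and 3.99 CPM and 1.11, 1.94 and 1.36 CPM (adjusted p = 0.0702). Clcn7, the lysosomal exchanger, was at 34.4, 12.3 and 20.6 CPM in aged and 4.61, 13.9 and 17.01 CPM in young libraries, where the groups overlap. Clcn4, Clcn6 and Clcn2 also overlapped. Trpv2, the only TRPV gene that passed the level rule, was at 66.6, 49.6 and 49.4 CPM in aged and 26, 46.6 and 50.2 CPM in young libraries (adjusted p = 0.355).

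Sodium channel genes were low throughout. Scn2a was at 3.64 ± 1.23 and 3.12 ± 2.64 CPM and Scn11a at 1.11 ± 0.454 and 1.09 ± 0.236 CPM, which overlapped between the ages. In Scn2a young 4 stood at 6.12 CPM, above every other library. Of the beta subunits, Scn3b was at 1.11 ± 0.447 and 0.782 ± 0.272 CPM.

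**Figure D4:**
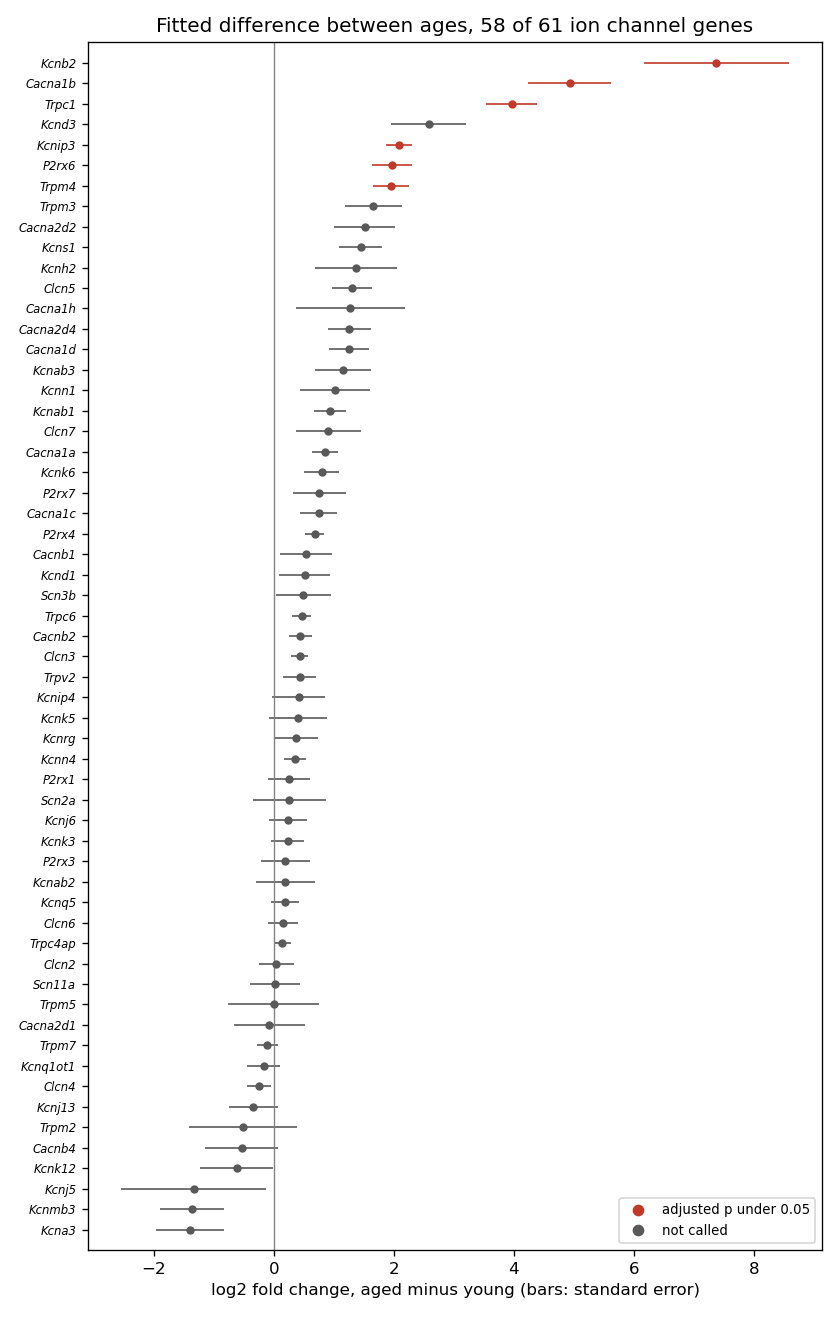
Fitted log2 fold change, aged minus young, of 58 of the 61 genes with its standard error; red points passed an adjusted p of 0.05 and grey ones did not. The 6 red points run from 1.95 for Trpm4 to 7.37 for Kcnb2, a fitted value that depends on the prior count since the young libraries held 1 count and ran from 6.33 without aged 3 to 9.29 without young 5, and the lowest points, Kcna3 and Kcnmb3, were not called.

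Genes of calcium handling and of channel families outside the symbol rule were counted from lists. Of 16 tested genes of calcium store release and refilling, 1 (6.25%) rose and none fell, beside 4.26% of all genes called higher. It was Cracr2b, a regulator of Orai channels, at 48.3, 51.5 and 91.2 CPM in aged and 16.5, 24.8 and 28.2 CPM in young libraries (2.74-fold, adjusted p = 0.0456). Itpr1, a calcium release channel of the endoplasmic reticulum, was at 89.4 ± 7.35 and 58.2 ± 1.54 CPM and did not pass (adjusted p = 0.0536). Of 22 calcineurin, NFAT and CaM kinase genes, 1 (4.55%) rose and none fell, a share near that of all genes: Camkk1, a kinase that calmodulin activates, at 70.4, 34.4 and 44.5 CPM against 5.72, 13.2 and 11.8 CPM (4.82-fold, adjusted p = 0.028). None of 11 calcium pumps and exchangers, 11 genes of mitochondrial calcium uptake or 9 genes of cation-chloride cotransport and the sodium pump was called by edgeR. At an unadjusted p under 0.05 these 3 lists held 0, 1 and 1 genes, Vdac2 and Atp1b3, both with lower values in aged cells. The smallest adjusted p-values were 0.203 for Atp2a2, 0.223 for Slc24a5, 0.161 for Vdac2, 0.216 for Vdac3, 0.118 for Atp1b3 and 0.209 for Slc12a7. At an unadjusted p under 0.05, 3 of the 16 store genes were higher and 0 lower. Of the 22 calcineurin, NFAT and CaM kinase genes, 5 were higher and 2 lower at that p. Over all genes the shares were 13.9% higher and 11.1% lower.

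Of 36 tested genes of other channel families, 2 (5.56%) rose and none fell, also near the 4.26% of all genes called higher. At an unadjusted p under 0.05, 12 of the 36 were higher and 0 lower, against 13.9% and 11.1% of all genes. Aged values lay above young ones without overlap in 12 and below in 0, against 19.0% and 17.6% of all genes. Mcoln2, a cation channel of endosomes and lysosomes from the TRPML family, was at 52.9, 54.0 and 63.8 CPM in aged and 30.9, 27.0 and 26.4 CPM in young libraries (2.02-fold, adjusted p = 0.0229 by edgeR). Gjb2, a gap junction connexin, held 34, 37 and 40 counts in aged and 0, 6 and 0 in young libraries (adjusted p = 0.0461 by edgeR). With at most 0.299 CPM in young libraries, Gjb2 could enter the test only through its aged ones, so the filter had fixed its direction. The median log2 fold change was 0.43 over the store genes, 0.27 over the other channel families, 0.03 over the calcineurin list and -0.17 over the mitochondrial list, beside 0.04 over all genes.

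How many channel genes were called depended on the libraries and the tool. Leaving out aged 1 or aged 2 gave 4 called of the 61, where 2.06% and 0.949% of all genes were. Leaving out aged 3, young 5 or young 6 gave 2, Kcnip3 and Trpc1 each time, beside 0.622%, 0.539% and 0.641% of all genes. Leaving out young 4 gave 8, beside 7.47% of all genes: P2rx4 and Cacna1a joined the 6 named above. By limma-voom 8 of the 61 were called, the 7 and Kcnd3, beside 6.09% of all genes. DESeq2 called 16 of the 61, all of them higher, beside 16.3% of all genes. After removal of the GC and length trend of each library, 6 were called, those named above, beside 10.4% of all genes. That fit also moved the split of all called genes from 74.0% to 50.3% higher and left 39 of the 61 genes with a positive fold in place of 48. Across the 61 genes, which share their libraries, GC content went with the deviation from the gene mean at a Spearman's rho of 0.40 in aged 1 and -0.42 in young 4, and between -0.15 and 0.19 in the other 4 libraries.

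**Figure D5:**
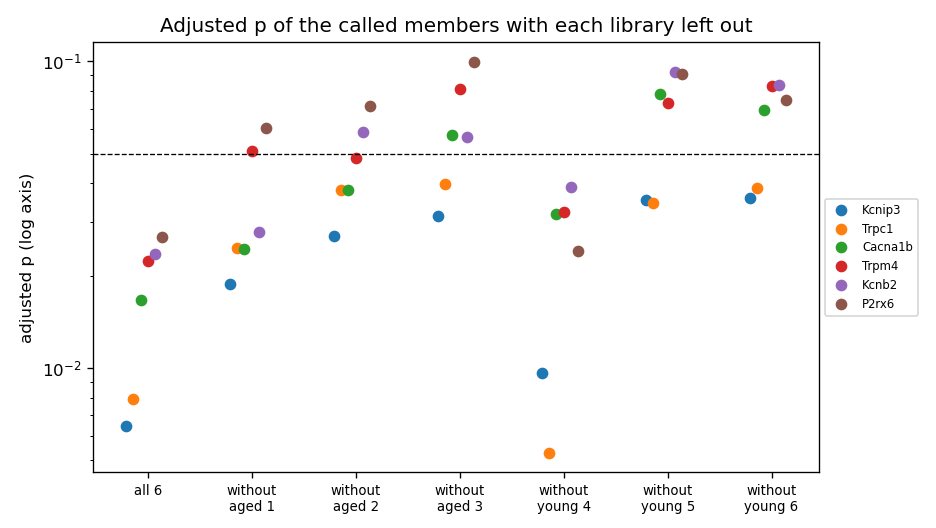
Adjusted p (log axis) of 6 of the 7 called genes with all 6 libraries and with each library left out; the dashed line is 0.05. Kcnip3 and Trpc1 lie under the line in all 7 fits, and P2rx6 lies under it only with all 6 libraries or without young 4.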

How the data were processed

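The authors deposited unscaled gene counts, as whole numbers, in a single table. Per the labels' protocols, libraries were made with SMART-Seq v4 and read as 51-cycle single reads; this kit marks no strand. Build mm10 and the tools HTSeq 0.11.1, STAR 2.6.0, edgeR and Trimmomatic are listed, per the submitters' processing notes. Annotation and counting mode: not given in the sources used here. Gene length in kb is also from the deposited table.

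Ages were compared in R 4.3.3 by edgeR 4.0.16, with age as the only term (TMM, filterByExpr, glmQLFit, glmQLFTest), with Benjamini-Hochberg adjustment over 13413 genes. DESeq2 1.42.0, limma 3.58.1 (voom), other scalings and filters, GC and length splines (4 degrees of freedom) and left-out libraries were alternatives; leaving out both young 4 and aged 2 was added after seeing the data. The fit was tested on simulated data. It recovered 13.3% of 98 simulated 2-fold differences and 77.6% of 98 4-fold ones, with 4 false calls in 13256 genes. A 2-fold difference was thus seldom called there.

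Genes and lists were chosen with earlier results of these data known. Named genes were all called members, the 15 with the smallest p, the 3 highest per role by RPKM, those nearest the level threshold and called genes of each list (otherwise the 2 with the smallest p). Most other members are named too, outside that rule and after their values were seen. A few genes, 3 of the 61 members among them, are counted but not reported here by name. The role groups were adjusted once after the table was read, to set Trpc4ap apart. Protein stretches were planned but no protein table was used here. Shared exons were taken from GENCODE M21.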

Additional observations from a re-analysis of the deposited data

How the results depend on the processing

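The count of 772 genes called by age was 443 at 5 CPM or more in 3 libraries, 1365 with the GC and length trend removed and 2181 by DESeq2, and ran from 74 to 1029 with a library left out. The count of 7 channel genes was 4 at 5 CPM or more, where 25 of the 61 were tested, 16 by DESeq2 and 4 among genes at 0.5 CPM in at least 1 library of each age, and ran from 2 to 8 with a library left out; it was 5 with both young 4 and aged 2 left out. In none of these fits was a channel gene called lower. Without scaling the median log2 fold change of all genes moved from 0.04 to 0.20, and 8 channel genes were called. At 0.25 or 1 CPM in 3 libraries, 80 or 49 symbols passed the level rule. Of the 30 other named genes, 15 changed the sign of their fold under at least 1 alternative and none was called under any, so no direction is given for those 15. Over all 61 members 21 changed sign, Cacna1h, Clcn2, Clcn6, Kcnip4 and P2rx3 among the rest. Their log2 values with the sign opposite to the fit of all 6 libraries follow. With the GC and length trend removed, the opposite sign came with -0.319 for Kcnab2, -0.266 for Kcnk3, -0.074 for Kcnn4, -0.001 for Cacnb1, -0.067 for Scn11a, -0.032 for P2rx1 and -0.188 for Trpc4ap. Without scaling, the opposite sign came with 0.046 for Kcnq1ot1, 0.04 for Cacna2d1, 0.077 for Trpm7 and 0.082 for Trpm5. With both young 4 and aged 2 left out, the opposite sign came with 0.023 for Kcnq1ot1, 0.064 for Cacnb4 and -0.068 for Scn11a. By DESeq2, the opposite sign came with -0.004 for Scn11a and 0.045 for Trpm5. By limma-voom, the opposite sign came with -0.053 for Scn11a and 0.821 for Trpm5. With median-ratio scaling, the opposite sign came with -0.004 for Scn11a. Without a filter, the opposite sign came with 0.017 for Trpm5. With a library left out, log2 values spanned both signs, from -0.45 to 0.517 for Kcnab2, -0.316 to 0.092 for Kcnq1ot1, -0.585 to 0.065 for Kcnj13, -0.212 to 0.673 for Kcnk5, -0.536 to 0.322 for Cacna2d1, -0.902 to 0.426 for Cacnb4, -0.153 to 1.157 for Scn2a, -0.319 to 0.281 for Scn11a, -0.244 to 0.495 for P2rx1 and -0.508 to 1.218 for Trpm5. No paired analysis was possible because the labels pair no aged library with a young one. Young counts of 0 to 4 limit what can be said of Kcnb2 and Cacna1b in young cells; p-values there rest on few reads.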
